A study of Mus musculus with 5 samples.

Results

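The mitochondrial ribosome is built from proteins encoded in the nucleus, and their genes carry symbols that begin with Mrpl for the large subunit and Mrps for the small subunit. All genes whose symbol in the platform annotation has this form were taken, by name alone. The group itself was chosen with earlier results of these data known. Of 78 such symbols, 71 had an array feature that named no other gene, out of 22180 genes so measured in the whole data set. These 71 genes comprise 43 of the large and 28 of the small subunit, and where a gene had more than 1 feature, the brightest on average stands for it. The samples were hematopoietic stem cells (HSCs) of C57BL/6 mice, sorted by flow cytometry after stem and progenitor cells had been cultured for 24 h with 5 µM all-trans retinoic acid (ATRA) or with the solvent DMSO. There were 3 DMSO arrays and 2 ATRA arrays. Both groups were cultured, so neither shows the state of freshly isolated cells. Whether replicates were separate cultures or animals is not stated in the labels, and p-values therefore reflect the spread among these 5 arrays, possibly a technical one.

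Mitochondrial ribosomes translate the few proteins that mitochondrial DNA encodes, all of them subunits of the respiratory chain or of ATP synthase. Some of their proteins have counterparts in bacterial ribosomes, and others are found only in mitochondria. HSCs are known for low protein synthesis and for keeping their mitochondria little active while quiescent, and the title of the study places ATRA in the exit of HSCs from dormancy.

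A few promoters are shown because matches to regulator sites were found in a larger share of these genes than of other genes, as counted further on, although no single motif was in most of them. RefSeq windows of build GRCm38.p6, with 250 bases before and 50 after the annotated start, were found for 62 of the 71 genes. The first set holds a match to the core of an ETS factor site, the kind bound by the mitochondrial gene regulator GABP, and the second a match to the site of NRF1, another such regulator. Each line gives the 100 bases before the start, 5′ to 3′ on the strand of the gene, with the match in capitals. The windows lie at chr8:71464826-71464925 (plus strand) for Mrpl34, chr13:99344686-99344785 (plus) for Mrps27, chr11:115403652-115403751 (plus) for Mrpl58, chr17:46110904-46111003 (plus) for Mrps18a, chr11:120484537-120484636 (plus) for Mrpl12 and chr13:14613038-14613137 (minus) for Mrpl32.
Mrpl34: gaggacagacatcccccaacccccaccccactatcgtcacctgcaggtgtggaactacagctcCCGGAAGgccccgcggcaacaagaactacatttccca
Mrps27: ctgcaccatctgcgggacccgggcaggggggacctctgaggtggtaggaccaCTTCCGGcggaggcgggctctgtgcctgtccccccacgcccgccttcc
Mrpl58: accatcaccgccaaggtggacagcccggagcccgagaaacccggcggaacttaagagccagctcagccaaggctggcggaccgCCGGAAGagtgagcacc
Mrps18a: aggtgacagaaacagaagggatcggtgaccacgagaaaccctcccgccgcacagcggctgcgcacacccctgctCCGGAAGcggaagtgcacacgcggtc
Mrpl12: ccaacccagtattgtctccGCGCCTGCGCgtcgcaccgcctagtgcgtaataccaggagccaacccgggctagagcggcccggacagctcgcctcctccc
Mrpl32: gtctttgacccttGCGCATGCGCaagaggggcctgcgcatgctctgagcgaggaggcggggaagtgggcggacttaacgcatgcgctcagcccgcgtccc

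The values are log2 expression values as deposited, and their precision is limited by the number of arrays. The ATRA arrays stood apart from the DMSO arrays and from each other. Values over all features had an SD of 1.96 to 1.97 with DMSO, of 1.77 in ATRA replicate 1 and of 1.49 in replicate 2. Of 10 measured HSC and progenitor markers, all had a DMSO mean above the median feature. Their mean log2 value was 8.75 to 8.91 with DMSO and 7.75 and 6.64 in ATRA replicates 1 and 2, and 5 of them fell. Over all genes 15.5% were called lower and 6.48% higher, and 52.4% of those with DMSO means from 8 to 9 were called lower. Neutrophil markers (6 measured) had means of 5.36 to 5.95 in DMSO and 6.24 and 5.91 in ATRA, and 1 of them rose. Values ran from 5.24 to 5.34 for 3 B cell markers and from 5.19 to 5.38 for 3 T cell markers in DMSO, against 5.53 and 6.09, and 5.50 and 6.07, in ATRA. Macrophage markers (4) were at 6.88 to 6.94 in DMSO and 6.85 and 6.44 in ATRA. The 4 megakaryocyte markers were at 8.43 to 8.70 in DMSO and at 7.98 and 7.95 in ATRA, 2 erythroid markers at 6.79 to 7.01 and at 6.18 and 7.10, and 4 stromal and endothelial markers at 6.66 to 6.83 and at 7.10 and 7.24. In each of the T cell and stromal lists 1 gene rose, and 1 megakaryocyte marker fell. The DMSO mean was above the median feature for 0 of 3 B cell, 0 of 3 T cell and 1 of 6 neutrophil markers, and dim genes had higher values with ATRA in general. The part of these shifts in the results was not tested. In bulk RNA, fewer cells of a type and less RNA per cell cannot be told apart.

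With ATRA, 15 of the 71 mitochondrial ribosomal protein genes fell and 56 did not pass the test. None rose at an adjusted p under 0.05 in limma. At an unadjusted p under 0.05, 0 were higher and 20 lower, against 3832 higher and 5103 lower of all 22180 genes. The 15 amount to 21.1% of the genes. Among all 22180 genes 21.9% were called, 15.5% as lower and 6.48% as higher, so the share of mitochondrial ribosomal protein genes called was close to that background. The median difference was -0.70 on the log2 scale, against 0.16 over all genes. It was negative for 61 genes and positive for 10. The calls rest on having all 3 DMSO arrays. Without DMSO replicate 1, 2 or 3, 0 of the 71 genes and 0 of all genes passed in limma. At an unadjusted p under 0.05 there were 15, 18 and 18 of the 71, and 5991, 6065 and 5907 of all 22180 genes. The replicate number as a block and array weights also left 0 of the 71 and 0 of all genes. At an unadjusted p under 0.05 these 2 fits gave 16 and 21 of the 71, and 5412 and 4377 of all genes. DMSO replicate 3 has no ATRA array of its number, so the block differences do not draw on it. Leaving out ATRA replicate 1 or replicate 2 each time kept 14 of the 15 calls, but the single ATRA arrays gave different pictures. Without ATRA replicate 1, 61 were called lower and 1 higher, where 64.1% of all genes were called (30.6% lower and 33.5% higher), and without ATRA replicate 2, 25 were called lower and 18 higher, where 34.6% of all genes were called (21.3% lower and 13.3% higher). Each of these 2 fits takes the spread of DMSO for that of the single ATRA array left. The scaling mattered as well. Quantile normalization repeated on the values gave 7 calls, all lower (background 9.84%, 7.86% lower and 1.98% higher). Cyclic loess gave 5 lower and 7 higher (background 10.3%, 6.78% lower and 3.48% higher). With arrays centred on their median 19 were lower (background 23.0%, 20.5% lower and 2.52% higher), and without dim features 18 of 68 (background 33.7%, 29.6% lower and 4.09% higher). An intensity trend with a robust prior gave 14, all lower (background 21.2%, 14.7% lower and 6.45% higher), as did a 1.5-fold minimum (background 21.3%, 15.2% lower and 6.02% higher) and the mean of all features (background 21.6%, 15.1% lower and 6.51% higher). At an adjusted p under 0.1, 20 were lower (background 35.0%, 21.1% lower and 13.9% higher).

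**Figure D1:**
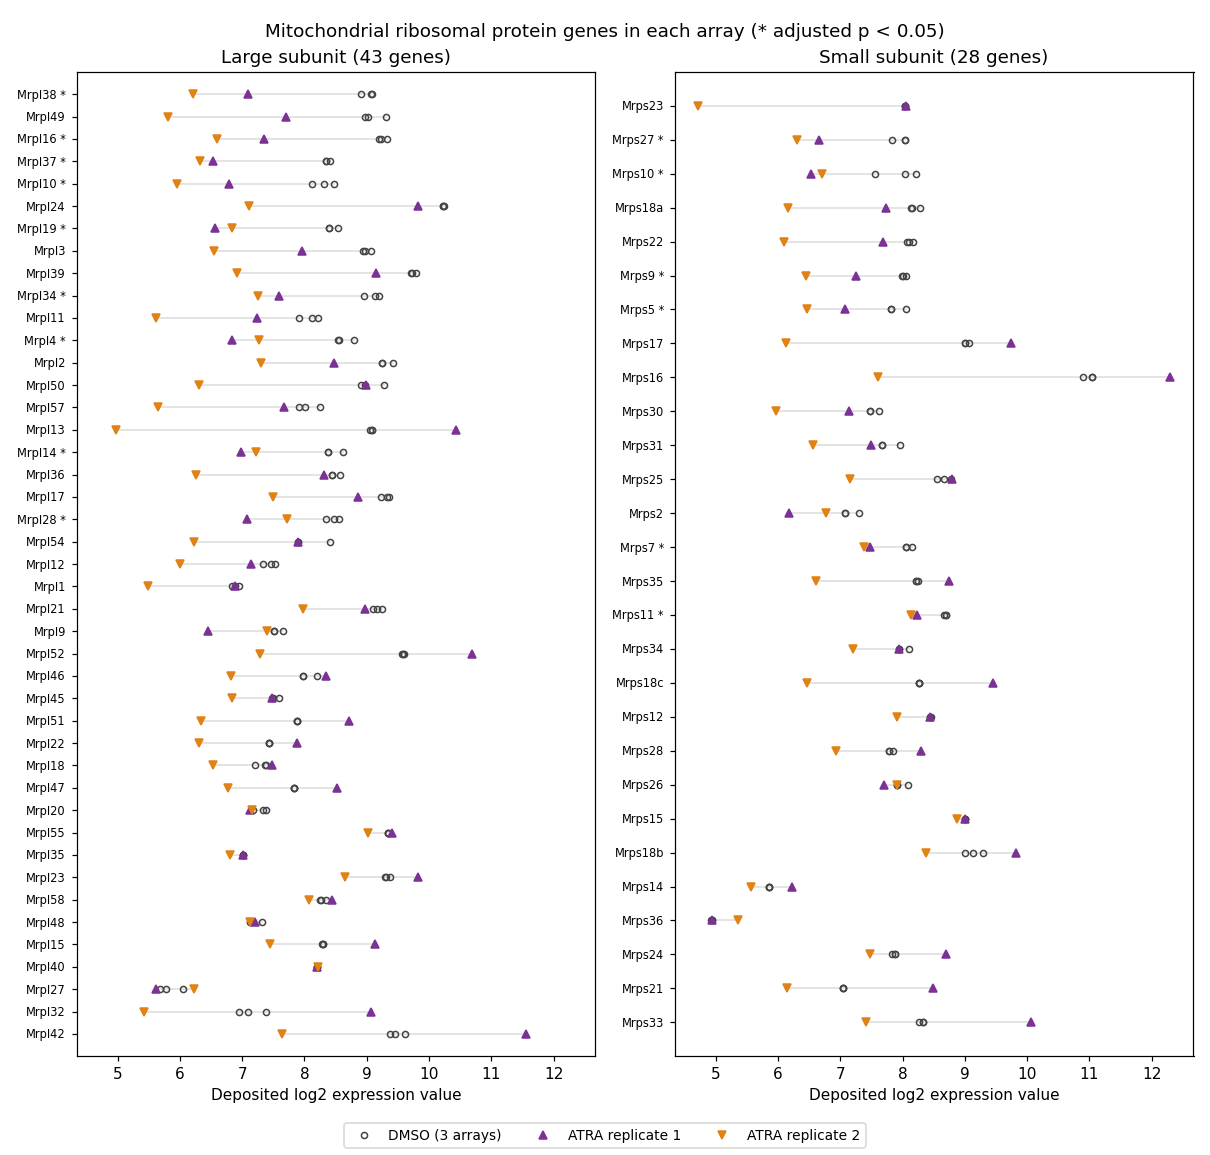
Deposited log2 value (x axis) of each mitochondrial ribosomal protein gene (rows, by subunit and ordered by difference) in the 3 DMSO arrays (open circles) and in ATRA replicates 1 and 2 (triangles), with asterisks for the 15 genes past an adjusted p of 0.05. The DMSO circles nearly coincide. ATRA replicate 2 lies to the left of all DMSO arrays in 66 of 71 genes, while replicate 1 lies left in 35 and right in 25. Of all 22180 genes, replicate 2 was below all DMSO values in 8352, and replicate 1 was below in 7846 and above in 9177.

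Among the large subunit genes, 9 of 43 fell, and 34 did not pass. Mrpl38, which encodes a protein found only in mitochondria, had values of 8.91, 9.06 and 9.09 in the DMSO arrays and 7.09 and 6.21 in the ATRA arrays. Both ATRA values lay well below the DMSO values, and the gene fell by 2.37 (SE 0.29, adjusted p = 0.0127), which is 5.17-fold. Mrpl16, the counterpart of a bacterial protein near the tRNA sites, went from 9.32, 9.19 and 9.23 to 7.35 and 6.59, and fell by 2.27 (SE 0.26, adjusted p = 0.0109). Mrpl37, another protein specific to mitochondria, had the smallest p-value of the 71 genes. Its values of 8.34, 8.34 and 8.40 in DMSO stood against 6.53 and 6.32, and the ATRA arrays differed little from each other (it fell by 1.94, SE 0.13, adjusted p = 0.00658). Mrpl19, whose bacterial counterpart sits at the contact between subunits, fell by 1.75 (SE 0.14, adjusted p = 0.00739), from 8.54, 8.40 and 8.40 to 6.56 and 6.83. Mrpl14, another protein of the subunit interface, fell by 1.35 (adjusted p = 0.0111), Mrpl34 fell by 1.67 (adjusted p = 0.00892), Mrpl4, a protein of the exit tunnel, fell by 1.58 (adjusted p = 0.0122), and Mrpl28 fell by 1.06 (adjusted p = 0.04).

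The stalk that recruits translation factors is formed by the products of Mrpl10 and Mrpl12, with that of Mrpl11 at its base. Of these, Mrpl10 fell, with 8.32, 8.12 and 8.47 in DMSO and 6.79 and 5.95 in ATRA (it fell by 1.93, SE 0.30, adjusted p = 0.0195). Mrpl11 stood at 8.12, 8.22 and 7.92 in DMSO and at 7.25 and 5.61 in ATRA, a difference of -1.66 (SE 0.52) that did not pass (adjusted p = 0.0861). Mrpl12, which also binds the mitochondrial RNA polymerase, stood at 7.47, 7.53 and 7.33 and at 7.14 and 6.00 (difference -0.88, SE 0.37, adjusted p = 0.15). On the feature that stands for each gene, both ATRA values lay below every DMSO value in all 3 stalk genes. That held for 33 of the 71 genes, 22 large and 11 small, and for 29.2% of all genes. On these features no gene of the 71 had both ATRA values above every DMSO value, which 33.0% of all genes had. The dimmer features of Mrpl10 and Mrpl12 did have both ATRA values above every DMSO value (differences 0.38 and 0.37). With the mean of both features the difference of Mrpl12 was -0.25 (limma, adjusted p = 0.237). Mrpl3, a protein close to the peptidyl transferase centre, had a difference of -1.73 (SE 0.44) and did not pass (adjusted p = 0.0575), its ATRA values being 7.97 and 6.55 against 8.94 to 9.07 in DMSO.

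Among the small subunit genes, 6 of 28 fell, and 22 did not pass. Mrps27, which encodes a pentatricopeptide repeat protein specific to mitochondria, was at 8.03, 7.84 and 8.04 in DMSO and at 6.65 and 6.31 in ATRA. The groups were apart by more than their spread, and the gene fell by 1.49 (SE 0.16, adjusted p = 0.0105). The other 5 have bacterial counterparts. Mrps10, Mrps7 and Mrps9, proteins of the head of the subunit, fell by 1.32 (SE 0.24, adjusted p = 0.0278), 0.66 (SE 0.11, adjusted p = 0.0251) and 1.17 (SE 0.26, adjusted p = 0.0437). Mrps5, at the mRNA entry, fell by 1.13 (SE 0.23, adjusted p = 0.0356) on its brighter feature, a call that was lost with the mean of both its features (-0.45, adjusted p = 0.0559), and Mrps11, on the platform, fell by 0.50 (SE 0.11, adjusted p = 0.04). The DMSO values of Mrps11 lay close together (8.69, 8.69 and 8.67), and its ATRA values of 8.23 and 8.13 were close to each other. Mrps12, the decoding-centre protein, did not pass, with 8.44, 8.45 and 8.44 in DMSO and 8.44 and 7.91 in ATRA (difference -0.27, adjusted p = 0.3). Mrps22, Mrps34 and Mrps16, which are among the genes known from inherited mitochondrial disease, did not pass either. Mrps22 differed by -1.23 (adjusted p = 0.141), Mrps34 by -0.43 (adjusted p = 0.248) and Mrps16 by -1.04 (adjusted p = 0.564).

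By origin, 12 of the 43 genes with a bacterial counterpart fell (27.9%) and 3 of the 28 specific to mitochondria (10.7%). Over all genes 15.5% were called lower. Within the large subunit the counts were 7 of 28 and 2 of 15, and within the small subunit 5 of 15 and 1 of 13. The median differences of the 2 classes were -0.70 and -0.64, with -0.20 and -0.05 in ATRA replicate 1 and -1.22 and -1.58 in replicate 2. The median gap between the ATRA arrays was 0.95 and 1.55, so the classes also differed in spread. The difference between these classes was not tested.

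The ATRA arrays often disagreed in direction for these genes. In 25 of 71 genes (35.2%), ATRA replicate 1 was above all 3 DMSO values and replicate 2 below all of them, a pattern that 4.37% of all genes showed. Among all genes the share was 7.04% for DMSO means from 7 to 8, 8.21% from 8 to 9 and 9.73% from 9 to 10, where 8 of 22, 8 of 27 and 7 of 16 mitochondrial ribosomal protein genes showed it. The pattern was present in 13 large and 12 small subunit genes. Mrpl13 was at 9.09, 9.05 and 9.09 in DMSO, at 10.43 in ATRA replicate 1 and at 4.98 in replicate 2. Its difference of -1.37 therefore had an SE of 1.66 (adjusted p = 0.515). Mrps16 went from 10.90, 11.04 and 11.04 to 12.29 in replicate 1 and 7.60 in replicate 2. Mrpl42 stood at 9.37, 9.61 and 9.45 and at 11.56 and 7.63 (difference 0.12, SE 1.20, adjusted p = 0.945). Mrpl32 stood at 7.38, 6.95 and 7.10 and at 9.07 and 5.42 (difference 0.10, SE 1.12, adjusted p = 0.951). For these genes the mean of the ATRA arrays describes neither array. Replicate 2 was below replicate 1 in 59 of the 71 genes, with a median gap of 1.16, and 37 genes had a gap over 1. Of all 22180 genes, replicate 2 was below replicate 1 in 9637, and 5017 had a gap over 1, in either direction for both counts of gaps. Over all genes the median gap was -0.08. Across the 71 genes, which share arrays and normalization and do not replicate each other, Pearson's r was 0.985 to 0.992 between DMSO arrays and 0.359 between the ATRA arrays. Over all features it was 0.966 to 0.978 and 0.730.

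Large and small subunit genes were set side by side. The share that fell was 20.9% for the large and 21.4% for the small subunit. The median difference was -0.88 for the large and -0.60 for the small subunit, with quartiles of -1.62 and -0.17, and of -1.10 and -0.14. The gap between the subunit medians was -0.27 in the fit, -0.17 in ATRA replicate 1 and -0.48 in ATRA replicate 2, with an SD between the ATRA arrays of 0.22. Large subunit genes also had higher DMSO values, with a median of 8.36 against 8.02, and genes with higher DMSO values had lower differences over all genes, as described further on. Once the level trend was taken out, the gap between the medians was -0.30 in the fit, -0.20 in replicate 1 and 0.13 in replicate 2. The gap between the means was then -0.14 in the fit and -0.22 and -0.06 in the ATRA arrays. A structural detail touches this split, because the products of Mrps30 and Mrps18a sit in the large subunit in mammalian structures. Mrps30 differed by -0.97 (adjusted p = 0.13), with 7.61, 7.48 and 7.48 in DMSO and 7.14 and 5.97 in ATRA. Counted there, they move the medians to -0.97 (45 genes) and -0.53 (26 genes), and the counts of genes that fell stay at 9 and 6. Members are not replicates of a condition, so the subunits were compared by these values and without a test.

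**Figure D2:**
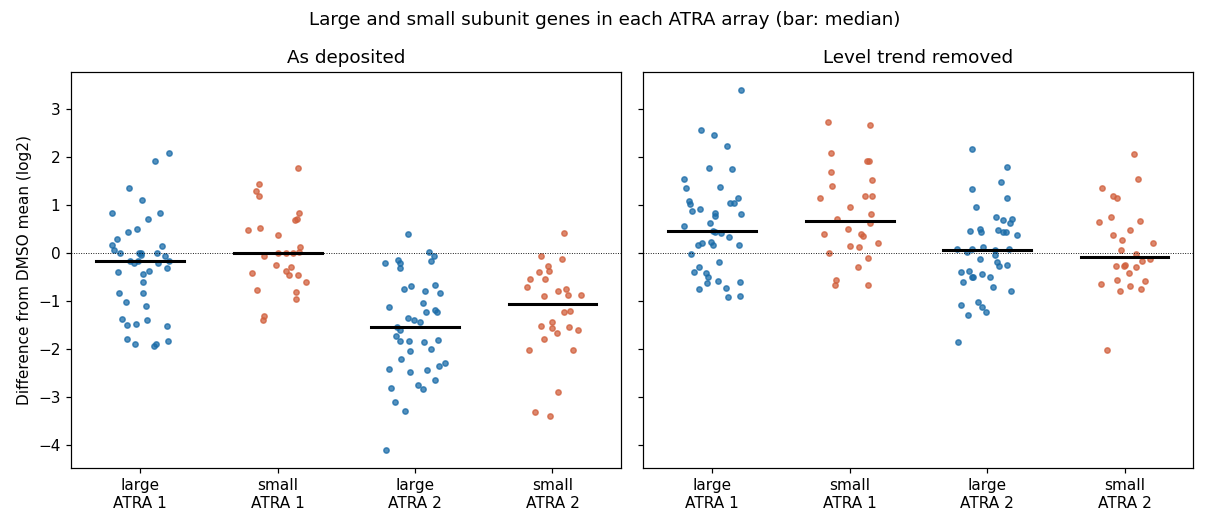
Difference from the DMSO mean (log2, y axis) of each large (blue) and small (orange) subunit gene in each ATRA array, as deposited (left) and with the level trend removed (right), with bars at the medians. The medians are -0.17 and -0.00 in replicate 1 and -1.55 and -1.06 in replicate 2 as deposited, and 0.46 and 0.66, and 0.06 and -0.08, with the trend removed.

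The difference between ATRA and DMSO depended on expression level in all genes. The median over all genes was 0.45 for DMSO means from 5 to 6, -0.64 from 7 to 8, -1.33 from 8 to 9 and -1.94 from 9 to 10. Mitochondrial ribosomal protein genes were well expressed, with a median DMSO value of 8.20 against 6.2 over all genes. In the same ranges of 7 to 8, 8 to 9 and 9 to 10 their medians were -0.35 (22 genes), -1.06 (27 genes) and -1.25 (16 genes), each less negative than that of all genes. From 8 to 9, 9 of 27 fell (33.3% called), where 53.0% of all genes were called. From 9 to 10, 3 of 16 fell (18.8%), where 58.1% of all genes were called.

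**Figure D3:**
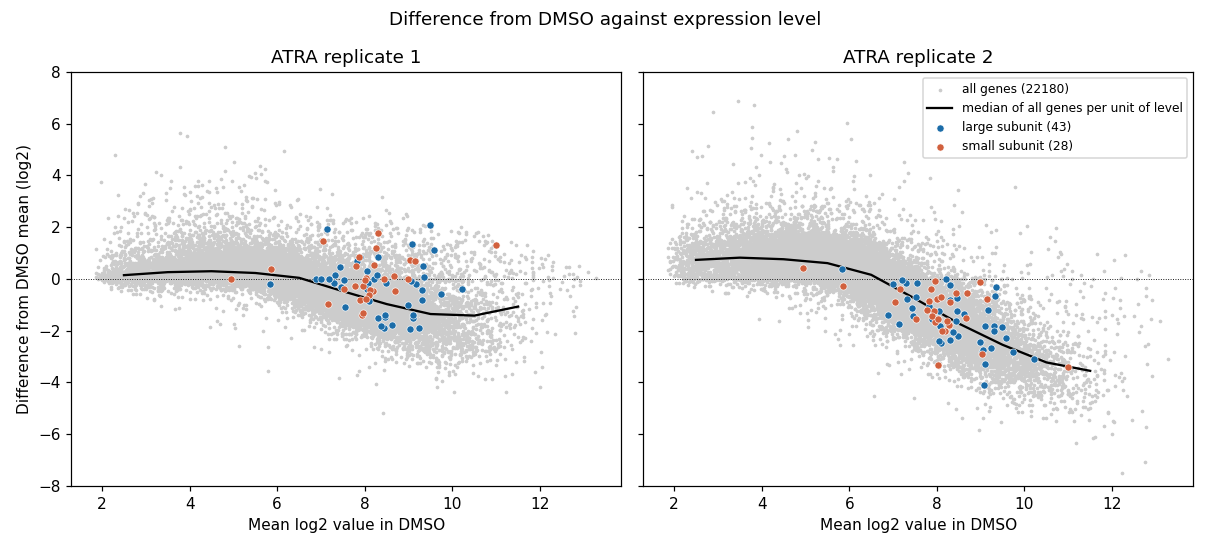
Difference of ATRA replicate 1 (left) and 2 (right) from the DMSO mean (y axis, log2) against the DMSO mean (x axis, log2) for all 22180 genes (grey), the large subunit (blue) and the small subunit (orange), with the median of all genes per unit of level (black line). The 71 genes lie mostly above 7 on the x axis, where the line falls below 0, and in replicate 1 they spread to both sides of it.

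When the trend on expression level was subtracted from each array, the median of the group turned from negative to positive. The median of the 71 genes was then 0.31, against 0.02 over all genes, and 46 of 71 (64.8%) were positive, against 51.9% of all genes. The ATRA arrays differed in this. Their medians were 0.56 in replicate 1 and 0.02 in replicate 2, against -0.01 and 0.01 over all genes. Both arrays were positive in 29 of the 71 genes and negative in 11, against 6711 and 6760 of all 22180 genes. None of the 15 falls was kept. At an unadjusted p under 0.05 in limma, 5 genes were lower and 19 higher, against 2225 and 2736 of all 22180 genes. At the adjusted threshold 0 were lower and 7 higher, where 1.06% of all genes were called lower and 2.16% higher. The 7 were Mrpl21, Mrpl23, Mrpl55, Mrpl58, Mrps12, Mrps15 and Mrps18b. As deposited none of these 7 passed, and their differences ran from -0.70 (Mrpl21) to -0.04 (Mrpl58 and Mrps18b). Mrpl23, a protein at the exit of the tunnel, stood at 9.31, 9.29 and 9.37 in DMSO and at 9.82 and 8.66 in ATRA. Its deposited difference was -0.09 (SE 0.37, adjusted p = 0.859), and relative to the level trend it was 1.79 higher (SE 0.13, adjusted p = 0.0118). Mrpl55 stood at 9.35, 9.35 and 9.34 and at 9.41 and 9.03, which is 1.76 above the trend (SE 0.26, adjusted p = 0.0393). Mrpl58, a hydrolase that frees stalled ribosomes, stood at 8.26, 8.35 and 8.26 and at 8.44 and 8.07, 1.19 above the trend (adjusted p = 0.0316). Mrps15 stood at 8.99 in all DMSO arrays and in ATRA replicate 1 and at 8.88 in replicate 2, 1.62 above the trend (adjusted p = 0.0495). Mrpl21 was 1.08 and Mrps12 1.06 above the trend (adjusted p = 0.0297 and 0.0316). The change of sign with the trend removed also held for Mrpl34, Mrpl28, Mrps7 and Mrps11 among the falls, with differences of 0.07, 0.28, 0.42 and 0.98 that did not pass. Mrpl37, Mrpl38 and Mrpl10 kept negative values of -0.66, -0.67 and -0.70 (adjusted p = 0.124, 0.0817 and 0.095).

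The Mrps18 family has 3 genes with proteins in different places, Mrps18c and Mrps18b in the small subunit and Mrps18a in the large. None passed. Mrps18a was at 8.14, 8.27 and 8.15 in DMSO and at 7.73 and 6.16 in ATRA (difference -1.24, SE 0.49, adjusted p = 0.134). Mrps18b was at 9.29, 9.0 and 9.13 and at 9.82 and 8.38 (difference -0.04, SE 0.46, adjusted p = 0.953), and it is one of the 7 genes above the level trend (1.73, adjusted p = 0.021). Mrps18c was at 8.27 in all DMSO arrays and at 9.45 and 6.47 in ATRA (difference -0.31, SE 0.91, adjusted p = 0.792). Replicate 2 was below the DMSO values in all 3 genes, and replicate 1 was above them in Mrps18b and Mrps18c. The smallest absolute differences of the 71 genes were those of Mrpl15, Mrpl40, Mrpl48 and Mrpl58. Mrpl40 had 8.20 in the DMSO arrays and 8.20 and 8.21 in ATRA, while Mrpl15 owed its 0.00 to 9.13 and 7.45 around a DMSO mean of 8.29.

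Second features were available for 9 genes, and 6 of these had the opposite sign. For Mrpl10, which fell by 1.93 on the brighter feature, the dimmer one stood at 6.44, 6.44 and 6.37 in DMSO and at 6.85 and 6.73 in ATRA (difference 0.38). With the mean of both features the difference of Mrpl10 was -0.78 (adjusted p = 0.0481). For Mrps16 both features showed the same pattern, the second with 8.90, 8.79 and 8.70 in DMSO, 10.44 in ATRA replicate 1 and 5.50 in replicate 2. For Mrps18b the second feature differed by -1.48, with 7.57, 7.06 and 8.17 in DMSO and 6.2 and 6.05 in ATRA. A further 7 symbols, Mrpl30, Mrpl33, Mrpl41, Mrpl43, Mrpl44, Mrpl53 and Mrps6, occurred on features that also named another gene, so their level could not be given. Many deposited values were equal to the last digit between arrays. In 8 of the 71 genes (11.3%) all DMSO values were identical, as in 6.47% of all genes, and in 10 genes (14.1%) a DMSO and an ATRA array shared a value, as in 21.2% of all genes. The SD of DMSO is 0 in those 8 genes, Mrpl22, Mrpl35, Mrpl40, Mrpl47, Mrpl51, Mrps15, Mrps18c and Mrps21, and none of them was called in the fit as deposited. With the level trend removed Mrps15 was called higher. Mrps12, also called higher there, had the same value in DMSO replicates 1 and 3 and in ATRA replicate 1. Mrps36, whose product is now also assigned to a metabolic enzyme complex, had the lowest DMSO values of the 71 genes (4.94, 4.92 and 4.94, and 4.94 and 5.35 in ATRA).

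The promoter windows of 62 genes were searched on both strands for letters bound by known regulators of mitochondrial genes. The ETS core CCGGAAG was found in 22 windows (35.5%), against 11.9% of 17491 protein-coding genes and 9.12% of all 27025 genes with a window. The YY1 core AAGATGGC was in 12 windows (19.4%), against 3.22% of protein-coding and 2.88% of all genes, and the NRF1 site, GCGCA and GCGC with any base between them, in 11 (17.7%), against 6.60% and 4.78%. At least 1 of these 3 motifs was in 37 windows (59.7%), against 19.5% of protein-coding genes. No match of one of these motifs overlapped a match of another. The NRF1 letters can match on both strands at once, as in 3 genes, where both matches are counted. Of 25 ETS matches, 22 lay between 100 bases before and 50 after the start, as did 9 of 12 YY1 and 14 of 17 NRF1 matches. The CCAAT box was in 24 windows (38.7%), near the 39.0% of protein-coding genes. The retinoic acid response element, a direct repeat of AGGTCA with any 5 bases between the copies, was in 0 of the 62 windows and in 2 of the 27025, which says only that these letters are not there. By subunit, ETS was in 29.7% of 37 large and 44.0% of 25 small subunit windows, YY1 in 16.2% and 24.0%, and NRF1 in 21.6% and 12%. Of the genes that fell, 12 had a window, and 2 of these held ETS, 4 YY1 and 2 NRF1. Of the 50 others, 20 held ETS, 8 YY1 and 9 NRF1. The windows were somewhat richer in G and C, at a median of 58.2% against 56.3% for protein-coding genes. A match is a description of the letters and not a site in use.

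**Figure D4:**
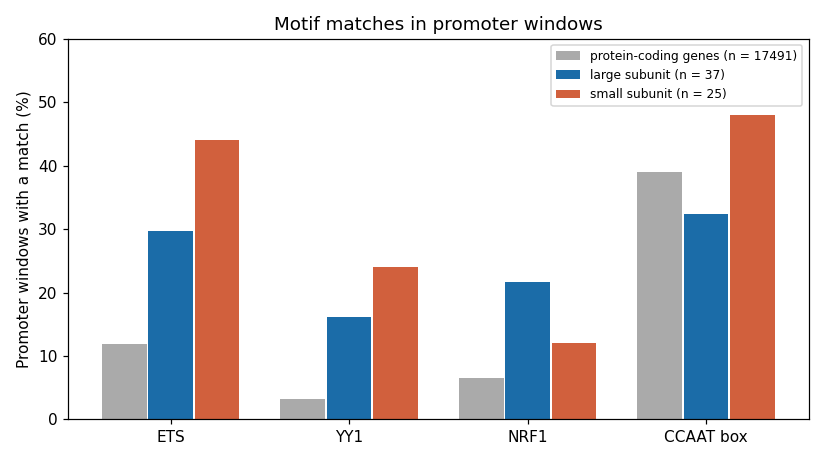
Percent of promoter windows (y axis, from 0) with at least 1 match to each motif (x axis), for protein-coding genes (grey, 17491 windows), large subunit genes (blue, 37) and small subunit genes (orange, 25). ETS, YY1 and NRF1 bars are taller for both subunits than for protein-coding genes, while the CCAAT bar is lower for the large subunit (32.4%) and taller for the small (48.0%).

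Many of these genes start back to back with another gene. Of the 62 with a window, 23 (37.1%) had the start of a gene on the opposite strand within 1000 bases upstream, against 11.5% of protein-coding genes. In 1 pair both genes belong to the mitochondrial ribosome: Mrps11 and Mrpl46, whose starts lie 42 bases apart. The 100 bases before the start of Mrps11, at chr7:78783031-78783130 (plus strand) of GRCm38.p6, therefore reach into Mrpl46, and are given to show how little sequence lies between them.
Mrps11: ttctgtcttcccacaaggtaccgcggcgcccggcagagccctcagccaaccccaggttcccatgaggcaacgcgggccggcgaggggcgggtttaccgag
Mrpl46 stood at 8.21, 7.97 and 7.97 in DMSO and at 8.35 and 6.82 in ATRA (difference -0.47, SE 0.48, adjusted p = 0.451), beside the fall of Mrps11 by 0.50. Mrpl46 lay on both sides of its DMSO values and Mrps11 only below. Among the 21 pairs with a gene of another kind, both genes fell in 2, the mitochondrial ribosomal protein gene alone in 3, the partner alone in 7, and neither in 9. Over all genes 15.5% were called lower, with 28.1% for DMSO means from 7 to 8 and 52.4% from 8 to 9. Whether partners differ from other genes of their level was not tested. Mrps27 and its partner Ptcd2, which encodes another mitochondrial RNA-binding protein, both fell, and Ptcd2 fell by 2.20 (adjusted p = 0.0249). Beside Mrpl40, at 8.20 and 8.21 in ATRA, its partner Hira, a histone chaperone, fell by 1.34 (adjusted p = 0.0154), from a DMSO mean of 7.85 to 6.73 and 6.30.

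Genes linked to these proteins were taken from lists, whose counts stand beside 15.5% of all genes lower and 6.48% higher. The median DMSO values of the lists were 8.03, 7.41, 7.77 and 7.66, in the order given below. Of all genes with DMSO means from 7 to 8, 28.1% were called lower, and 52.4% of those from 8 to 9. A place on a list does not show what the main product of a gene does. Of mitoribosomal proteins with other names, Dap3, Ptcd3 and Gadd45gip1 were measured, besides Mrpl57 and Mrpl58, which are among the 71. None of these 5 passed (limma, 1 at an unadjusted p under 0.05). Ptcd3, at the mRNA entry, stood at 7.88, 8.33 and 7.88 in DMSO and at 7.30 and 6.51 in ATRA (difference -1.13, adjusted p = 0.0645). Dap3 differed by -0.62 (adjusted p = 0.255), Mrpl57 by -1.40 (adjusted p = 0.173) and Gadd45gip1 by -0.01 (adjusted p = 0.933). Of 31 genes listed for mitoribosome assembly and rRNA modification, 7 fell, 0 rose and 24 did not pass (22.6% lower, median difference -0.63). Mief1 fell by 2.33 (adjusted p = 0.00767), and Rbfa, which matures the small subunit, fell by 2.03 (adjusted p = 0.00876). Gtpbp10, a GTPase of large subunit assembly, fell by 0.94 (adjusted p = 0.0169), and was the only gene of this list called with the level trend removed (-0.88, adjusted p = 0.0489). Mtg2, another such GTPase, fell by 0.77 (adjusted p = 0.0177).

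Of 15 measured genes listed for mitochondrial translation, 5 fell (33.3%), 0 rose and 10 did not pass (median difference -0.87). Tufm, the elongation factor that brings tRNA to the ribosome, stood at 10.10, 9.86 and 9.78 in DMSO and at 6.30 and 6.23 in ATRA. It fell by 3.65 (SE 0.15, adjusted p = 0.00627) on its brightest feature, and both ATRA arrays gave nearly the same value. With the mean of all its features the difference was -2.08 (adjusted p = 0.00678). With the level trend removed it was -1.49 and did not pass (adjusted p = 0.134). Lrpprc, which stabilizes mitochondrial mRNAs, fell by 1.21 (adjusted p = 0.0122), Letm1 fell by 1.22 (adjusted p = 0.0116) and Tsfm, the exchange factor of Tufm, fell by 0.73 (adjusted p = 0.0323). Of 10 regulators of nuclear genes for mitochondria, 5 fell, 0 rose and 5 did not pass (median difference -0.82). Pprc1, a coactivator, fell by 1.65 (adjusted p = 0.00747), and Gabpb2 and Gabpa, subunits of the factor that binds the ETS core above, by 1.07 (adjusted p = 0.012) and 1.23 (adjusted p = 0.0343). Myc fell by 1.66 (adjusted p = 0.0372). With the level trend removed, none of these falls in the translation and regulator lists was called. The differences of Mtg2, Letm1, Tsfm, Pprc1 and Myc became positive (0.10, 0.12, 0.30, 0.053 and 0.72). In that fit 1 regulator was called higher, Yy1 (1.62, adjusted p = 0.019), whose deposited difference was -0.07 (adjusted p = 0.825).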

How the data were processed

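The authors deposited log2 expression values, 1 per array feature and array, for 41345 features. The submitters' processing notes list limma 3.28.20, oligo 1.36.1 and RMA without saying what each was used for. A genome build is not given in the sources used here. No low values were filtered out. The platform annotation, with symbols updated by gene identifier, named the features, and 22180 genes had a feature naming only them. The 2 ATRA arrays were tested against the 3 DMSO arrays with lmFit and eBayes of limma 3.58.1 in R 4.3.3 (two-sided, 3 residual degrees of freedom). P-values were adjusted by Benjamini-Hochberg across the 22180 genes, and calls were made at 0.05. The smallest p of an exact two-sided permutation test with 3 against 2 arrays is 0.1, so none was used. For the level trend, a lowess curve (span 0.2) of each array's difference from the DMSO mean, or from that of the other DMSO arrays, was subtracted. The fit was tested on simulated data.

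The genes and lists were chosen with earlier results of these data known. Genes named are up to 8 per subunit with the smallest p among those past the threshold, any that rose, those called or with the 5 smallest p after removal of the level trend, the 4 with the largest gap between ATRA arrays and the 4 with the smallest difference, a fixed set taken whatever their values, the mitoribosomal proteins with other names and the 4 smallest p of each other list. Genes outside this rule (Mrpl28, Mrpl46, Mrps36, Ptcd2, Hira, Yy1 and genes listed by name for shared features or identical values) and the bands of expression level were chosen after their values were seen. Other settings left out each array, added the replicate number as a block, repeated quantile normalization, centred arrays on their median, used cyclic loess, left out dim features, changed the variance model, the array weights or the threshold, averaged the features of a gene and counted Mrps30 and Mrps18a as large.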

Additional observations from a re-analysis of the deposited data

How the results depend on the processing

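The 15 falls (9 large, 6 small) rest on few arrays and on the scaling. Leaving out 1 array gave 0 to 37 large and 0 to 24 small subunit genes lower, 0 to 18 genes of both subunits higher, and, over all genes, 0 to 7424 higher and 0 to 6783 lower. The replicate number as a block gave 0 calls among the 71 genes (16 at an unadjusted p under 0.05) and 0 over all genes (5412 at an unadjusted p under 0.05). Deviations of same-numbered arrays correlated at 0.134 and 0.098 in 2 pairs. With 2 ATRA arrays their deviations are mirror images, so these values cannot decide whether the numbers mark a pairing. The main fit took the arrays to share only a number. Array weights also gave 0 calls in both directions, with 21 of the 71 genes and 4377 of all genes at an unadjusted p under 0.05. Quantile normalization repeated gave 5 large and 2 small subunit genes lower, with 439 genes higher and 1743 lower over all genes. Cyclic loess gave 4 large and 1 small subunit genes lower and 7 higher, with 771 higher and 1504 lower over all genes, and a small subunit median of 0.41. Removal of the level trend gave 0 lower and 7 higher (480 higher and 235 lower over all genes), with subunit medians of 0.28 (large) and 0.58 (small). All genes called higher numbered 560 with arrays centred on their median, 516 without dim features and 3083 at an adjusted p under 0.1. Centring moved the median of all genes from 0.16 to -0.11. The intensity trend with a robust prior, the 1.5-fold minimum and the mean of all features each gave 14 of the 71 genes, all among the 15. No symbol carried a pseudogene suffix, so that alternative gave no value.

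Genes named by the rule that changed sign were as follows, in log2, and the cause was not tested. With the level trend removed: Mrpl34 0.070, Mrps7 0.42, Mrps11 0.98, Mrpl23 1.79, Mrps18b 1.73, Mrpl21 1.08, Mrps12 1.06, Mrpl58 1.19, Mrpl55 1.76, Mrps15 1.62, Mrpl13 0.36, Mrps16 1.49, Mrpl48 0.38, Mrps18c 0.90, Mrps34 0.59, Dap3 0.019, Gadd45gip1 0.31, Mtg2 0.10, Letm1 0.12, Tsfm 0.30, Pprc1 0.053 and Myc 0.72. Outside the rule, Mrpl28 (0.28), Mrpl46 (0.59) and Mrps36 (-0.29) also changed sign there. With cyclic loess: Mrps7 0.27, Mrps11 0.85, Mrpl23 1.60, Mrps18b 1.59, Mrpl21 0.84, Mrps12 1.0, Mrpl58 1.20, Mrpl55 1.56, Mrps15 1.51, Mrpl13 0.002, Mrps16 1.03, Mrpl48 0.38, Mrps18c 0.85, Mrps34 0.51, Gadd45gip1 0.30, Tsfm 0.13 and Myc 0.20. With quantile normalization repeated: Mrps11 0.29, Mrpl23 0.64, Mrps18b 0.69, Mrpl21 0.050, Mrps12 0.47, Mrpl58 0.71, Mrpl55 0.62, Mrps15 0.72, Mrpl48 0.33, Mrps34 0.12 and Gadd45gip1 0.28. With arrays centred: Mrpl42 -0.16, Mrpl32 -0.17, Mrpl15 -0.27 and Mrpl40 -0.27. With array weights Mrps18b was at 0.001. Leaving out 1 array gave ranges of -0.67 to 0.49 for Mrpl23, -0.76 to 0.68 for Mrps18b, -0.22 to 0.15 for Mrpl58, -0.31 to 0.066 for Mrpl55, -4.10 to 1.35 for Mrpl13, -3.39 to 1.30 for Mrps16, -1.85 to 2.08 for Mrpl42, -1.73 to 1.92 for Mrpl32, -0.84 to 0.84 for Mrpl15, -0.060 to 0.033 for Mrpl48 and -1.80 to 1.18 for Mrps18c.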
